A study of Mus musculus with 24 samples.

Results

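Messenger RNA of the mouse striatum was measured on 12 arrays, 6 from mice homozygous for the huntingtin knock-in allele HdhQ111 (Q111 below) and 6 from mice homozygous for the wild-type allele Hdh+, which the labels also give as Q7. The labels number the arrays of each genotype 1 to 6, and they do not say what, if anything, separates numbers 1 to 3 from numbers 4 to 6. The quantity described here is the crossed difference: Q111 minus wild type in numbers 1 to 3, minus Q111 minus wild type in numbers 4 to 6, on the log2 scale. A value above 0 means that the signed difference, Q111 minus wild type, was higher in numbers 1 to 3. A value below 0 means that it was higher in numbers 4 to 6. The set with the difference of greater size can be either. All 12 striatum arrays of the 24 in the series belong to it, 3 arrays in each of 4 cells of genotype and number set. The rule that picks them uses tissue and number only. Age is given as a range of 3 to 10 weeks for all groups together, and sex is not given. The knock-in is a change in the mouse's own huntingtin gene, with no transgene promoter. The replicates are called biological without separate mice being named, and a p-value here reflects how much these arrays vary, part of which may be technical.

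The striatum is a forebrain nucleus made up mostly of projection neurons that use GABA and carry dopamine receptors, and these are the neurons lost first in Huntington's disease. It borders the cortex, septum, globus pallidus and lateral ventricle, and the thalamus lies behind it. Neurons of the thalamus, most of which use glutamate, express the transcription factor gene Tcf7l2 and the vesicular glutamate transporter gene Slc17a6. Striatal projection neurons express another set of transcription factor genes, among them Six3, Foxp1, Meis2 and Ebf1, and signal through dopamine receptors, cyclic AMP and the phosphoprotein DARPP-32 (Ppp1r1b).

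The arrays carried the tissue's defining genes. The dopamine receptor gene Drd1 read 10.93 to 12.31 on the 12 arrays against a mean of 2.10 in the cerebellum arrays, and Gabra6, a granule cell gene of the cerebellum, read 2.37 to 2.93 against a mean of 13.81. Array medians lay between 3.38 and 3.51, and arrays of 1 cell correlated at 0.9836 to 0.990 over the 19528 probe sets used. Arrays of different cells were nearly as alike, at 0.975 to 0.9895, and the median between wild type 1 to 3 and Q111 4 to 6 (0.9866) was above that within wild type 1 to 3 (0.986). The median was lowest between the genotypes of the same number set, 0.982 in numbers 1 to 3 and 0.9815 in numbers 4 to 6. The other pairings of different cells had medians of 0.9857 to 0.9871. Htt, the targeted gene, still makes a transcript in the knock-in, and its array probe checks no label: its crossed difference was 0.09 (SE 0.18, adjusted p = 0.840).

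The genotype difference was not the same in both number sets. Of 19528 probe sets with a mean of at least 4 on the 12 arrays, 607 (3.11%) had a crossed difference with a limma adjusted p under 0.05 (Benjamini-Hochberg over these probe sets, the meaning of "called" from here on). In 182 (0.932%) it was above 0 and in 425 (2.18%) below 0. With 1 probe set per gene, the one with the highest mean, 198 of 10378 genes (1.91%) were called, 85 (0.819%) above 0 and 113 (1.09%) below 0. The sizes of the 198 ranged from 0.52 to 3.03 with a median of 0.92, and 85 were at least 2-fold. The count of 607 fell to 274 without wild-type replicate 6, 345 without Q111 replicate 3, 322 without Q111 replicate 4, 380 without Q111 replicate 5, and 330 with the replicate number as a block.

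Of the 198 called genes, 196 had opposite signs in numbers 1 to 3 and 4 to 6, against 5145 of all 10378 genes (49.6%). A call for a large difference between the sets favours opposite signs, so this count describes the called genes and supports nothing. In 126 of them the Q111 and wild-type arrays did not overlap in either set. Such a mirrored separation held for 309 of all 10378 genes (2.98%), 176 (1.7%) with Q111 above in numbers 1 to 3 and 133 (1.28%) with Q111 below. A separation in 1 and the same direction in both sets held for 325 genes (3.13%). Most of the called genes did not pass within a set: 133 of the 198 passed in neither, 23 in the first set, 47 in the second, and 5 of these in both. Q111 minus wild type in numbers 1 to 3 was called for 144 probe sets (0.737%) and 43 genes (0.414%). In numbers 4 to 6 it was called for 446 probe sets (2.28%) and 99 genes (0.954%).

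**Figure D1:**
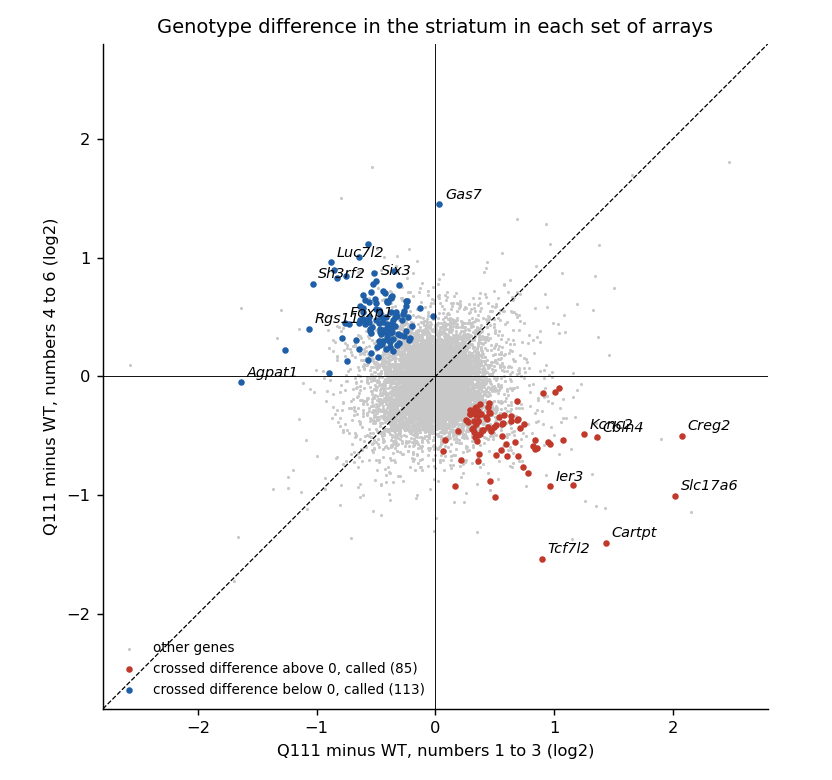
Each point is 1 of 10378 genes, by its Q111 minus wild-type difference in numbers 1 to 3 (horizontal, log2) and in numbers 4 to 6 (vertical, log2), with equal differences on the dashed line. The 85 genes called above 0 (red) lie at the lower right and the 113 called below 0 (blue) mostly at the upper left, with Agpat1 and Gas7 close to an axis.

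Which genotype's arrays carry the crossed difference cannot be told apart in these values. The mean over both genotypes hardly differed between the number sets, with an SD over probe sets of 0.0538 log2. Limma called 0 probe sets for it (28 at an unadjusted p under 0.05). That SD is below the median SE of 0.1006, so the means are closer than the spread between arrays would give. In cerebellum the SD was 0.0504. The near equality is thus not read as a likeness of the sets, and its source was not tested. With those means equal, a gene higher in the wild-type arrays of 1 set is lower in the Q111 arrays of that set by construction. The difference between the sets in wild type alone was called for 43 probe sets (0.22%) and that in Q111 alone for 68 (0.348%).

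All gene lists were chosen with earlier results of these data known, so their counts are description and no independent support. Of the lists with at least 4 measured genes, that of thalamus neurons had the highest median. Of 29 measured genes of a 39-gene list, 5 were called above 0 and 0 below, against 0.819% and 1.09% of all genes, and 24 were above 0. Their median crossed difference was 1.10, against 0.05 over all genes, with a median genotype difference of 0.76 in the first set and -0.40 in the second. Of the 29, 8 stand in another list too. The next-highest median was 0.87, for midbrain dopamine neurons, with 4 measured genes of 13 listed, all above 0 and 0 called. Cerebellar granule and Purkinje neurons followed at 0.63, with 3 of 5 measured genes above 0 and Rora, also a thalamus list gene, called. Fewer cells of a type and less RNA per cell cannot be told apart in such tissue samples.

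Slc17a6, which loads glutamate into synaptic vesicles, read 7.81, 8.03 and 7.39 on wild-type arrays 1 to 3 and 9.41, 9.60 and 10.28 on Q111 arrays 1 to 3. On wild-type arrays 4 to 6 it read 8.46, 9.35 and 10.29, and on Q111 arrays 4 to 6 8.57, 9.11 and 7.40. The genotypes stood apart in numbers 1 to 3 and overlapped in numbers 4 to 6, where Q111 replicate 6 was the lowest and wild-type replicate 6 the highest. The crossed difference was 3.03 (SE 0.68, limma adjusted p = 0.0372), the highest of the called genes, and it missed the threshold in 14 of 22 alternative settings, with an adjusted p up to 0.120. A dimmer probe set of Slc17a6 gave 3.93 (SE 0.70, adjusted p = 0.0132).

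Tcf7l2, a transcription factor of Wnt signalling that marks thalamus neurons, read 5.51, 4.95 and 4.87 on wild-type arrays 1 to 3 against 5.85, 6.12 and 6.04 on Q111. In numbers 4 to 6 it read 5.97, 6.53 and 6.93 in wild type against 5.25, 5.01 and 4.56 in Q111. The genotypes did not overlap in either set, with Q111 above in the first and below in the second. The crossed difference was 2.43 (SE 0.35, adjusted p = 0.0048), and Tcf7l2 passed in all 21 alternative settings in which it was tested.

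**Figure D2:**
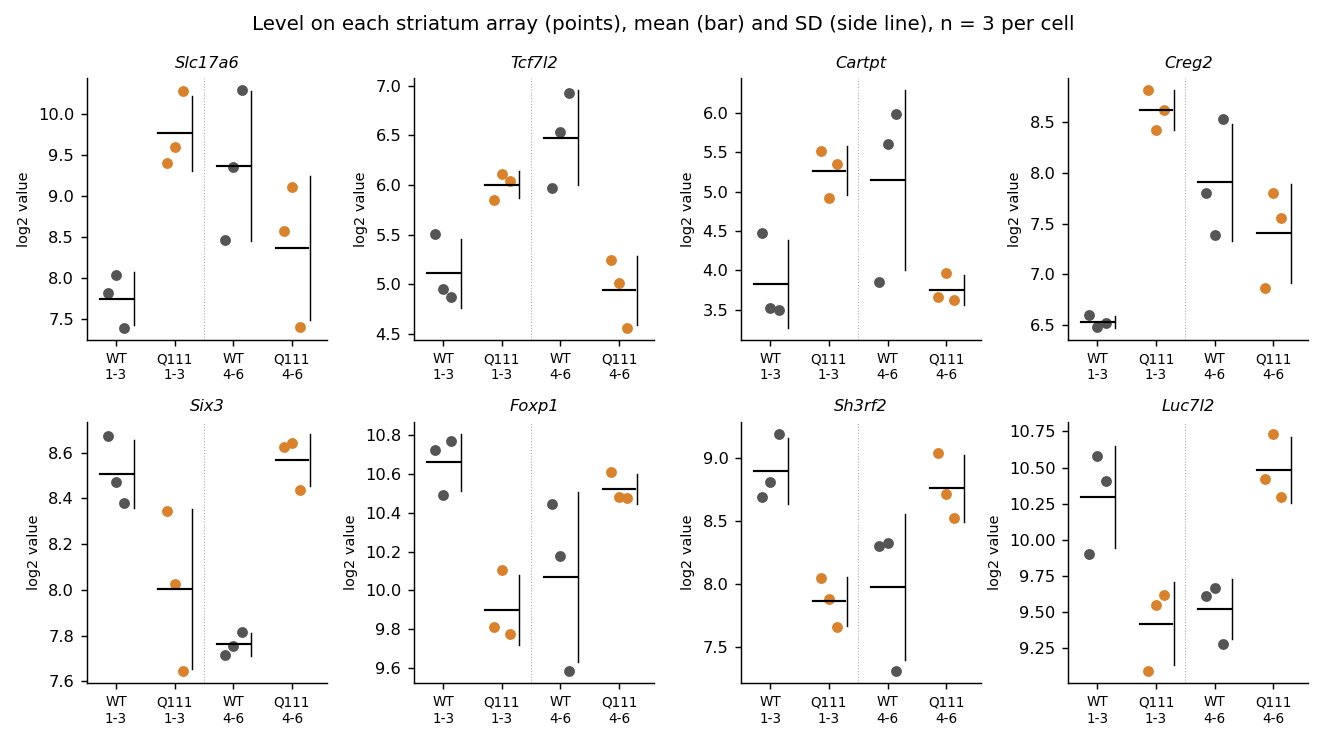
Log2 value of 8 genes on each of the 12 striatum arrays (points; grey, wild type; orange, Q111), with the mean as a bar and the SD as a side line for the 3 arrays of each cell. In the upper row (Slc17a6, Tcf7l2, Cartpt, Creg2) the Q111 mean lies above wild type in numbers 1 to 3 and below it in numbers 4 to 6, and in the lower row (Six3, Foxp1, Sh3rf2, Luc7l2) the order is turned.

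Of the other called thalamus genes, Kcnc2, a potassium channel subunit of fast-firing neurons, had a crossed difference of 1.74 (SE 0.39, adjusted p = 0.0384). Rora, a nuclear receptor, had 1.41 (SE 0.33, adjusted p = 0.0423), and 5 of its 6 further probe sets had the same sign. Adarb1, an enzyme that edits adenosines in RNA, had 0.86 (SE 0.20, adjusted p = 0.0461). Kcnc2 and Rora missed the threshold in 13 of 22 alternative settings each and Adarb1 in 14. The number of called genes of the list was 1 with the replicate block and 1 to 8 when a single array was left out. Kcnc2 read 7.83 to 8.38 in wild type and 9.27 to 9.67 in Q111 in numbers 1 to 3, where the genotypes stood apart, and 8.47 to 9.55 and 8.28 to 8.97 in numbers 4 to 6, where they overlapped.

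Among the members that missed the threshold were some of the largest values, with wide spreads within cells. Prkcd, a protein kinase of thalamus neurons, had 2.44 (SE 0.97, adjusted p = 0.197) and read 6.88, 7.43 and 5.30 on wild-type arrays 1 to 3 alone. Shox2, a homeobox gene named after its value was seen, had 3.30 (adjusted p = 0.12). Calb2, a calcium-binding protein of thalamus, habenula and some interneurons, had 2.51 (SE 0.90, adjusted p = 0.157). Over all kept probe sets of the 29 genes, 10 of 47 were called above 0 in 7 genes and 0 below, against 0.932% and 2.18% of all probe sets. The added genes were Rgs16, a G protein regulator, at 2.87 (adjusted p = 0.0256), and Patj, a cell polarity gene, at 2.26 (adjusted p = 0.0210), both named after their values were seen. Another 7 listed genes, the thalamus transcription factor genes Gbx2, Lef1, Lhx9, Prox1 and Zic4 among them, stayed under a mean of 4, as did Tnnt1 and Vipr2.

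The mean level of the thalamus list on single arrays was 6.62 to 6.93 on wild-type arrays 1 to 3 and 7.32 to 7.76 on Q111 arrays 1 to 3. It was 6.97 to 7.94 on wild-type arrays 4 to 6 and 6.52 to 7.31 on Q111 arrays 4 to 6. The first 2 ranges stand apart and the last 2 overlap. Wild-type replicate 6 (7.94) and Q111 replicate 6 (6.52) were the highest and the lowest of the 12, and wild-type replicate 6 is also the array whose removal lowered the count of called probe sets most.

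**Figure D3:**
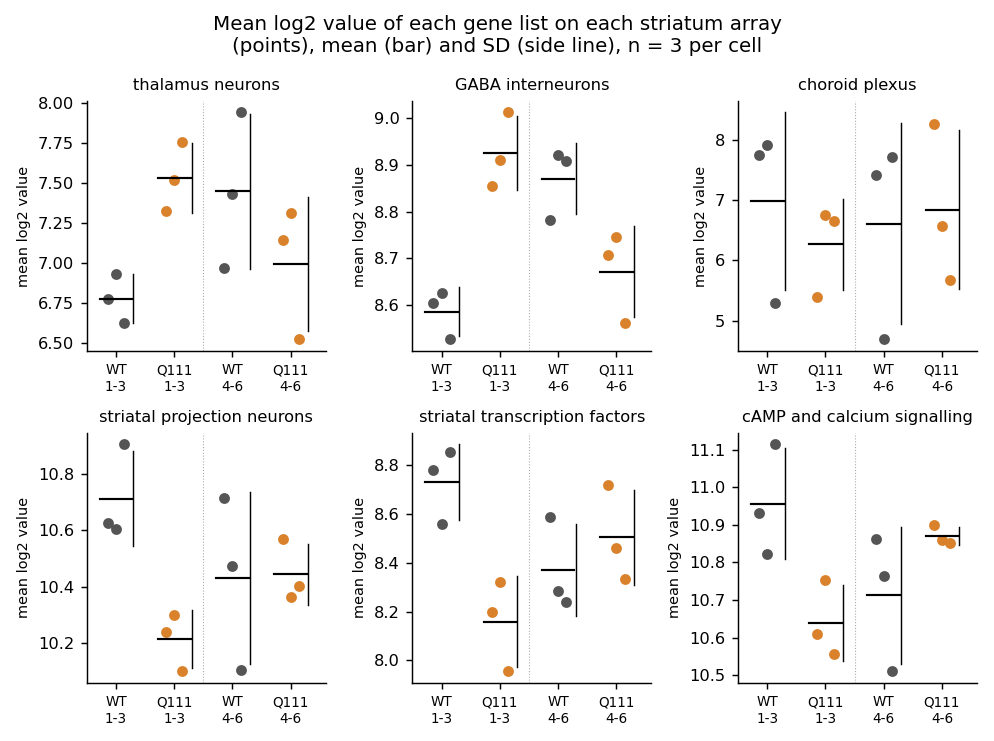
Mean log2 value of the measured genes of 6 lists on each striatum array (points; grey, wild type; orange, Q111), with mean and SD of the 3 arrays per cell. Thalamus and GABA interneuron means are high in Q111 arrays 1 to 3 and wild-type arrays 4 to 6, the 3 striatal lists run the other way in numbers 1 to 3, and choroid plexus varies most within cells.

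Other called genes above 0 belonged to several regions and to no list. Cartpt, the CART neuropeptide, was the only called gene of 13 of the septum list and of 16 neuropeptide genes, against 0.819% of all genes. It read 4.47, 3.52 and 3.49 on wild-type arrays 1 to 3 and 5.52, 4.92 and 5.35 on Q111, then 3.84, 5.61 and 5.99 on wild-type arrays 4 to 6 and 3.66, 3.96 and 3.62 on Q111. Wild-type replicate 4 lay among the low arrays, and several of these values are near background. The crossed difference was 2.84 (SE 0.65, adjusted p = 0.0396), or 2.31 with values under 4 set to 4. Cartpt missed the threshold in 11 of 21 settings, with an adjusted p up to 0.125. The median of the septum list was 0.16 and that of the neuropeptides 0.28. Other cell-type lists of the forebrain had few calls: Ccn2, a matricellular protein of deep cortical neurons, was the only 1 of 28 cortex genes called (1.61, SE 0.30, adjusted p = 0.0158; list median 0.12).

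The promoter of Cartpt is shown because the gene has the second-largest crossed difference among the called genes and carries a well-known cyclic AMP response element. It covers chr13:99900634-99900933 on the minus strand of GRCm38.p6, from 250 bases before the RefSeq start to 50 after it, with the match to TGACGTCA in capitals.

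Cartpt: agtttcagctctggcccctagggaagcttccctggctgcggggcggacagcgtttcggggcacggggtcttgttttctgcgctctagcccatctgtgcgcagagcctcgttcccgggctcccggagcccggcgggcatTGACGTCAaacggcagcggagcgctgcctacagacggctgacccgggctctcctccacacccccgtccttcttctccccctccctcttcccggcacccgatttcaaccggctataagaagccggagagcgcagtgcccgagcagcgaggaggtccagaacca

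Of 67 genes called above 0 with a promoter in the RefSeq table, 2.99% held TGACGTCA on either strand, against 3.6% of 8444 measured genes with one and 1.16% of 86 called below 0. Among 12 motifs searched on both strands, TAATTA, a homeodomain core, was found in 10.4% of promoters of genes called above 0 (7 of 67), 3.49% of those called below 0 and 3.11% of all. On the other side, CTTTGAA was found in 10.5% of promoters of genes called below 0 (9 of 86), 5.97% of those called above 0 and 4.17% of all. A match is a run of letters and was not tested as a binding site.

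GABA interneuron genes had 2 calls above 0 among 16 (Kcnc2 and Pvalb) and 0 below, against 0.819% and 1.09% of all genes. The median was 0.48, or 0.18 without a filter on low values, and the calls numbered 0 to 2 when single arrays were left out. Pvalb, parvalbumin of fast-spiking neurons, had 1.15 (SE 0.27, adjusted p = 0.0413) and missed the threshold in 13 of 22 settings, and Sst, somatostatin, named after its value was seen, 0.69 (adjusted p = 0.057). The mean level of the list separated the genotypes within each set: it was 8.53 to 8.63 on wild-type and 8.86 to 9.01 on Q111 arrays 1 to 3, and 8.78 to 8.92 on wild-type and 8.56 to 8.75 on Q111 arrays 4 to 6. Of the 16 genes 9 also stand in other lists, Kcnc2 and Pvalb among them. Kcnc2, also a thalamus list gene, was the 1 call of 24 potassium channel genes. Pvalb was the 1 call of 6 globus pallidus genes (list median 0.26). Both counts stand against 0.819% of all genes called above 0. The general GABA markers Gad1 (-0.17, adjusted p = 0.59) and Gad2 (-0.18, adjusted p = 0.7) were not called. Resp18, an endocrine secretory protein, was the only call among 12 hypothalamus genes (1.5, SE 0.36, adjusted p = 0.0487), against 0.819% of all genes, and missed the threshold in 16 of 22 settings.

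Creg2, a secreted glycoprotein of the brain, had the third-largest called value. It read 6.60, 6.48 and 6.52 on wild-type arrays 1 to 3 and 8.81, 8.42 and 8.61 on Q111, then 7.80, 7.39 and 8.53 on wild-type arrays 4 to 6 and 6.86, 7.80 and 7.56 on Q111. The first 3 and the next 3 arrays lie far apart, and the genotypes overlap in numbers 4 to 6. The crossed difference was 2.58 (SE 0.39, adjusted p = 0.0060). Creg2 was called within numbers 1 to 3 as well (2.08, adjusted p = 0.0086).

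Cbln4, a cerebellin that binds synaptic neurexins, had 1.87 (SE 0.32, adjusted p = 0.0106), and Bmper, a secreted regulator of bone morphogenetic proteins, 1.53 (SE 0.25, adjusted p = 0.0081). Arid5b, a chromatin-binding protein, read 6.77 to 7.04 and 7.74 to 7.79 on wild-type and Q111 arrays 1 to 3, and 7.69 to 7.75 and 6.97 to 7.39 in numbers 4 to 6. The wild-type and Q111 arrays changed places, and both sets passed alone (0.86, adjusted p = 0.0098; -0.60, adjusted p = 0.0284). Its crossed difference was 1.46 (SE 0.17, adjusted p = 0.0014). Zfp120, a zinc finger gene, likewise read 5.99 to 6.34 and 6.77 to 7.0, then 6.99 to 7.13 and 6.31 to 6.46, with 1.37 (SE 0.16, adjusted p = 0.0014).

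The stress-response gene Ier3 had 1.89 (SE 0.30, adjusted p = 0.0072) and the adenylyl cyclase gene Adcy7 1.51 (SE 0.25, adjusted p = 0.0093; 1.30 with values under 4 set to 4). Lurap1l had 2.08 (adjusted p = 0.0230), Pdk4, a kinase that restrains pyruvate oxidation, 1.60 (adjusted p = 0.0398), and the noncoding host gene Snhg12 1.52 (adjusted p = 0.0153). Creg2, Cbln4, Bmper, Arid5b, Zfp120, Ier3 and Adcy7 passed in every alternative setting in which they were tested, while Lurap1l missed in 5 and Pdk4 in 13. In the remaining lists, Bhlhe40, a repressor of the clock, was the 1 call of 16 clock genes (1.06, adjusted p = 0.0191). Herpud1, of protein degradation at the endoplasmic reticulum, was the 1 call of 22 chaperone genes of that compartment counted as measured (0.92, adjusted p = 0.0095). Ero1b was called too (0.77, adjusted p = 0.0373), but the list names it by its older symbol Ero1lb, so the count leaves it out. Gabrb2 was the 1 call of 8 GABA-A receptor subunits (0.57, adjusted p = 0.0380, missed in 12 of 22 settings). Each of these list counts stands against 0.819% of all genes called above 0.

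Genes of the striatum's own neurons lay on the other side. Of 13 measured striatal transcription factor genes, all 13 had a crossed difference below 0 and 4 were called, against 1.09% of all genes. Their median was -0.53, with a median genotype difference of -0.51 in numbers 1 to 3. In numbers 4 to 6 it was 0.18. Of the 13, 7 also stand in other lists.

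Six3, a homeobox gene of striatal projection neurons, read 8.67, 8.47 and 8.38 on wild-type arrays 1 to 3 and 8.34, 8.02 and 7.65 on Q111. In numbers 4 to 6 it read 7.72, 7.76 and 7.82 in wild type and 8.63, 8.64 and 8.44 in Q111. The genotypes did not overlap in either set. Its crossed difference was -1.31 (SE 0.22, adjusted p = 0.0100), called in all 22 alternative settings.

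The promoter of Six3 is shown as that of the transcription factor gene with the lowest value. It covers chr17:85620584-85620883 on the plus strand of GRCm38.p6, with the match to TGACAG, a core that TALE homeodomain proteins such as Meis2 bind, in capitals. The share of promoters with that core was 18.6% among genes called below 0, 22.4% among those called above 0 and 19.6% of all.

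Six3: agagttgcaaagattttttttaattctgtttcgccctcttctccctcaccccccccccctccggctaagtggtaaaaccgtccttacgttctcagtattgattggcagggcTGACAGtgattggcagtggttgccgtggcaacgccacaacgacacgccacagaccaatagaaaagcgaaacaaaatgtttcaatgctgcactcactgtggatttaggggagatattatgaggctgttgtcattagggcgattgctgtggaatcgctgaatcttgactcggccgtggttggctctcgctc

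Foxp1, a forkhead repressor of both projection neuron types, read 10.72, 10.50 and 10.77 on wild-type arrays 1 to 3 and 9.81, 10.11 and 9.78 on Q111. In numbers 4 to 6 it read 10.45, 10.18 and 9.59 in wild type and 10.61, 10.48 and 10.48 in Q111. The genotypes stood apart in both sets, narrowly in the second. Its crossed difference was -1.22 (SE 0.26, adjusted p = 0.0319). Meis2, a homeobox gene, had -1.17 (SE 0.27, adjusted p = 0.0425), and Ebf1, of direct pathway neurons, -1.04 (SE 0.20, adjusted p = 0.0180). The call was lost in 15 of 22 settings for Meis2, 10 for Foxp1 and 2 for Ebf1, and the list kept 2 to 5 calls when single arrays were left out and 1 with the replicate block.

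Of 32 genes of striatal projection neurons, 1 was called below 0 and 0 above, against 1.09% and 0.819% of all genes. Of the 32, 28 lay below 0, as did 4409 of all 10378 genes, and their median was -0.52. The median genotype difference was -0.47 in the first set and -0.03 in the second. Sh3rf2, a ring-finger protein, was the called gene. It read 8.69, 8.80 and 9.19 on wild-type arrays 1 to 3 and 8.04, 7.88 and 7.66 on Q111, then 8.30, 8.32 and 7.31 on wild-type arrays 4 to 6 and 9.04, 8.71 and 8.52 on Q111. Wild-type replicate 6 was the lowest of the 12, and the genotypes did not overlap in either set. Its crossed difference was -1.82 (SE 0.36, adjusted p = 0.0223).

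The best-known genes of these neurons did not pass. Drd1, the dopamine receptor of the direct pathway, had -1.10 (SE 0.32, adjusted p = 0.0923), with -0.63 in the first set and 0.47 in the second. It read 11.85, 11.60 and 12.31 on wild-type arrays 1 to 3 and 11.49, 11.33 and 11.05 on Q111. Drd2, the receptor of the indirect pathway, had -0.70 (adjusted p = 0.239), Ppp1r1b -0.74 (adjusted p = 0.159), Tac1, the substance P precursor, -0.66 (adjusted p = 0.180) and Penk, the enkephalin precursor, -0.23 (adjusted p = 0.621). With each array left out, the adjusted p of Drd1 ranged from 0.0349 to 0.206.

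By pathway, 10 of 11 direct pathway genes lay below 0, as did 4409 of all 10378 genes. Of the 11, 1 was called below 0 (Ebf1), against 1.09% of all genes. Their median was -0.25, which was -0.06 without Q111 replicate 4, -0.52 without Q111 replicate 6 and -0.43 without wild-type replicate 3. Of 8 indirect pathway genes, 4 lay below 0, with a median of -0.12 (0.04 without wild-type replicate 3) and 0 called by limma (3 at an unadjusted p under 0.05, 1 above and 2 below 0). Of 30 genes of cyclic AMP and calcium signalling, 26 lay below 0 with a median of -0.50. Limma called 0 of these, while 16 had an unadjusted p under 0.05, against 17.6% of all genes in either direction. Of the 16, 1 lay above and 15 below 0, against 1134 and 695 of all 10378 genes. The nearest to the threshold were Rgs9, which speeds the turn-off of G protein signals, at -1.08 (adjusted p = 0.052) and Rasgrp2, an exchange factor of Rap, at -1.25 (adjusted p = 0.056), both named after their values were seen. Of the 30, 13 also stand in other lists.

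**Figure D4:**
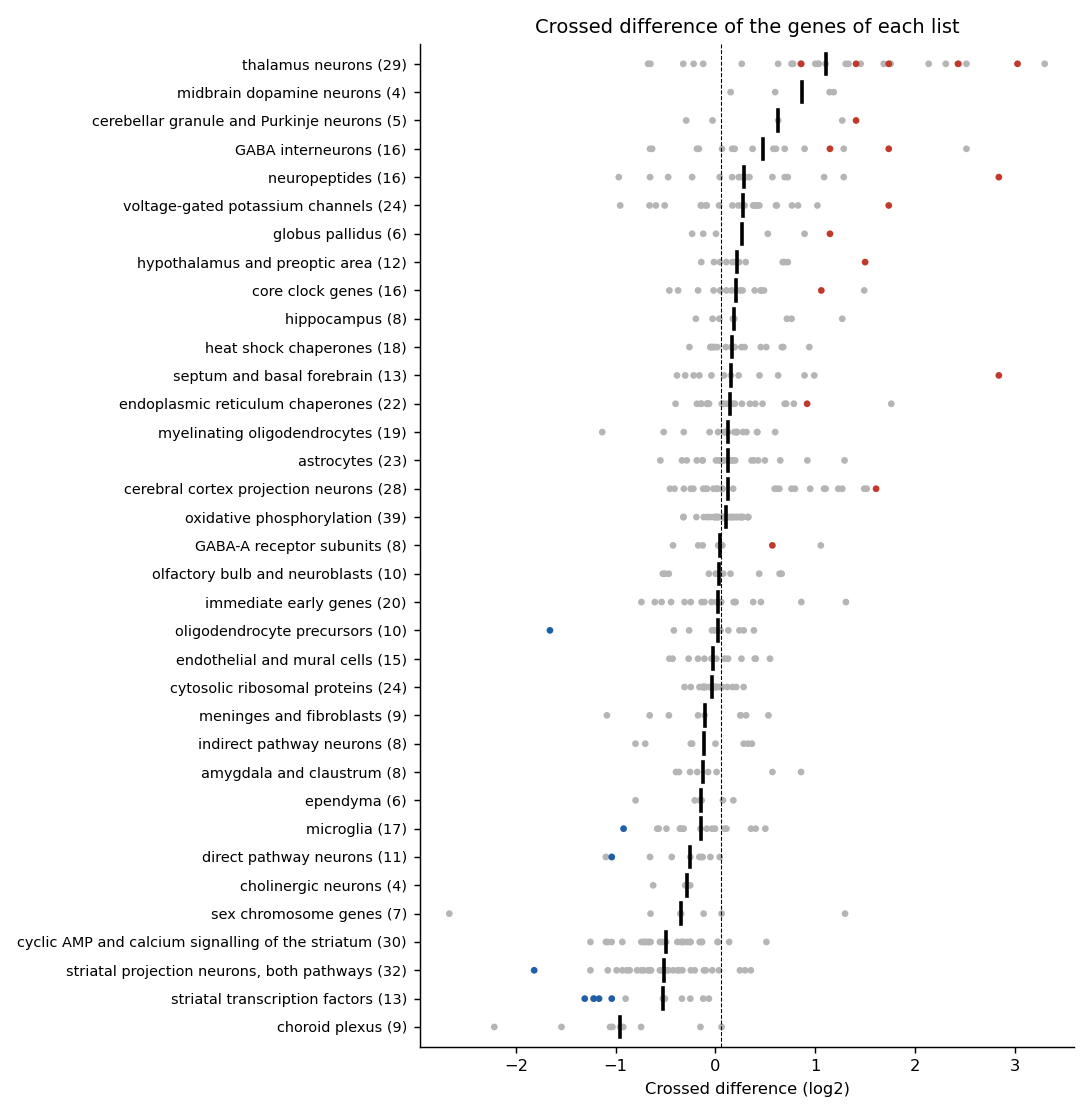
Crossed difference (horizontal, log2) of each measured gene of the lists with at least 4 measured genes (numbers in brackets), with the list median as a black bar, genes called above 0 in red, below 0 in blue and others in grey; the dashed line is the median of all genes, 0.05. The thalamus list has the highest median, 1.10, and the 3 striatal lists and the choroid plexus list, with no call, the lowest.

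Among the 15 lowest called genes, 2 (Sh3rf2 and Six3) belonged to striatal lists and 1 (Cacng4) to oligodendrocyte precursors. Luc7l2, a splicing factor, had the lowest value. It read 9.90, 10.58 and 10.41 on wild-type arrays 1 to 3 and 9.09, 9.55 and 9.62 on Q111, then 9.61, 9.66 and 9.28 on wild-type arrays 4 to 6 and 10.42, 10.74 and 10.30 on Q111. The genotypes did not overlap in either set. Its crossed difference was -1.84 (SE 0.28, adjusted p = 0.0064).

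Rbfox2, another splicing regulator, had -1.75 (SE 0.36, adjusted p = 0.0250) with all 3 further probe sets of the same sign. Zzef1, a zinc finger protein, read 7.71 to 8.13 and 7.17 to 7.33 in numbers 1 to 3, then 7.12 to 7.37 and 7.91 to 8.29, with -1.59 (SE 0.20, adjusted p = 0.0021). Ipw, a noncoding RNA of the imprinted Prader-Willi region, had -1.65 (SE 0.32, adjusted p = 0.0208). Further noncoding or unnamed transcripts were 6330415B21Rik (-1.68), 9530059O14Rik (-1.49), AY036118 (-1.39) and A930013F10Rik (-1.31). Of these genes, 9530059O14Rik missed the threshold in 15 settings, 6330415B21Rik in 12, A930013F10Rik in 11, Rbfox2 in 8 and Ipw in 5. The mean of 6330415B21Rik was 4.22, near background. With values under 4 set to 4 its crossed difference was -1.22 (adjusted p = 0.0776) and it was not called.

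Rgs11, a regulator of G protein signalling, had -1.46 (SE 0.20, adjusted p = 0.0033) and Arhgap33 -1.29 (SE 0.21, adjusted p = 0.0094). Zcchc7, a zinc knuckle protein of nuclear RNA surveillance, had -1.19 (SE 0.17, adjusted p = 0.0045). Cacng4, a regulatory subunit of AMPA receptors, was 1 of 10 genes of oligodendrocyte precursors and the only one called (-1.66, SE 0.25, adjusted p = 0.0060). Cx3cr1, the fractalkine receptor, was the only call among 17 microglia genes (-0.92, SE 0.17, adjusted p = 0.0168). Both counts stand against 1.09% of all genes called below 0.

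Agpat1 and Gas7 were the 2 called genes whose genotype difference at the brightest probe set did not turn its sign. Agpat1, an enzyme of phospholipid synthesis, read 8.92, 8.35 and 8.86 on wild-type arrays 1 to 3 and 6.95, 7.08 and 7.19 on Q111, a difference of -1.64 (adjusted p = 0.0084). Numbers 4 to 6 differed by -0.05, and the crossed value was -1.59 (SE 0.28, adjusted p = 0.0121). Gas7, a gene of neurite outgrowth, had a genotype difference of 0.03 in the first set and 1.45 in the second (adjusted p = 0.0124), with a crossed difference of -1.42 (SE 0.33, adjusted p = 0.0409; missed in 14 of 22 settings). Further probe sets of both genes did turn: one of Agpat1 gave -2.27 and 2.00 (crossed -4.27, SE 0.58, adjusted p = 0.0037) and one of Gas7 -0.90 and 0.76 (crossed -1.66, SE 0.19, adjusted p = 0.0014).

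Over the called genes as a whole, 31.0% of the 113 below 0 were at least 2-fold higher in striatum than in cerebellum, as were 21.2% of the 85 above 0 and 13.1% of all genes. Of the called genes, 12 of the 85 and 7 of the 113 stood in any of the 37 lists, as did 482 of all 10378 genes (4.64%). Ero1b, listed under its older symbol, is not counted in these. Of the 37 lists, 17 had a called gene and 20 had none.

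Calls below 0 were more frequent away from the brightest probe sets. Among 10378 brightest probe sets 1.09% were called below 0, among 7106 further probe sets of the same genes 3.10%, and among 1545 probe sets with no gene named 5.63%. Calls above 0 made up 0.819%, 1.18% and 0.712%. The median of the calls below 0 was -0.92, -1.31 and -1.69. Further and unnamed probe sets were dimmer, with median levels of 6.85 and 5.70 against 7.77. Within the level of 6 to 8 the shares below 0 were 1.12%, 3.56% and 9.88%, and at 10 or more 0 of 157 unnamed probe sets were called.

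The probe sets of 1 gene could differ widely. All 7 of Foxp1 were below 0, from -0.51 to -2.50. The brightest and 2 of the 6 further ones were called, and 5 of the 6 were nearer to 0 than the brightest. The dimmest, with a mean of 5.61, had the lowest value. It read 6.44, 6.38 and 5.45 on wild-type arrays 1 to 3 and 5.13, 5.03 and 5.01 on Q111, then 4.96, 4.91 and 4.87 on wild-type arrays 4 to 6 and 6.39, 6.38 and 6.39 on Q111. The genotypes stood apart in both sets (-2.50, SE 0.29, adjusted p = 0.0014).

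Pde10a, Ptpn5 and Dclk1 were chosen after their values were seen. Pde10a, the phosphodiesterase of striatal projection neurons, had -0.67 (SE 0.29, adjusted p = 0.23) at its brightest probe set and -2.29 (SE 0.22, adjusted p = 0.0010) at another. The latter read 9.75, 9.48 and 10.01 on wild-type arrays 1 to 3 and 8.74, 8.93 and 8.55 on Q111, then 8.71, 8.65 and 8.44 on wild-type arrays 4 to 6 and 10.08, 9.88 and 9.67 on Q111. Ptpn5, the striatal phosphatase STEP, had -0.99 (adjusted p = 0.11) and -2.49 (SE 0.46, adjusted p = 0.0158). Dclk1, a kinase of neuronal microtubules, had 0.26 (SE 0.17, adjusted p = 0.44) at its brightest probe set and -2.34 (SE 0.30) at another, so the probe sets of this gene did not have 1 direction.

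**Figure D5:**
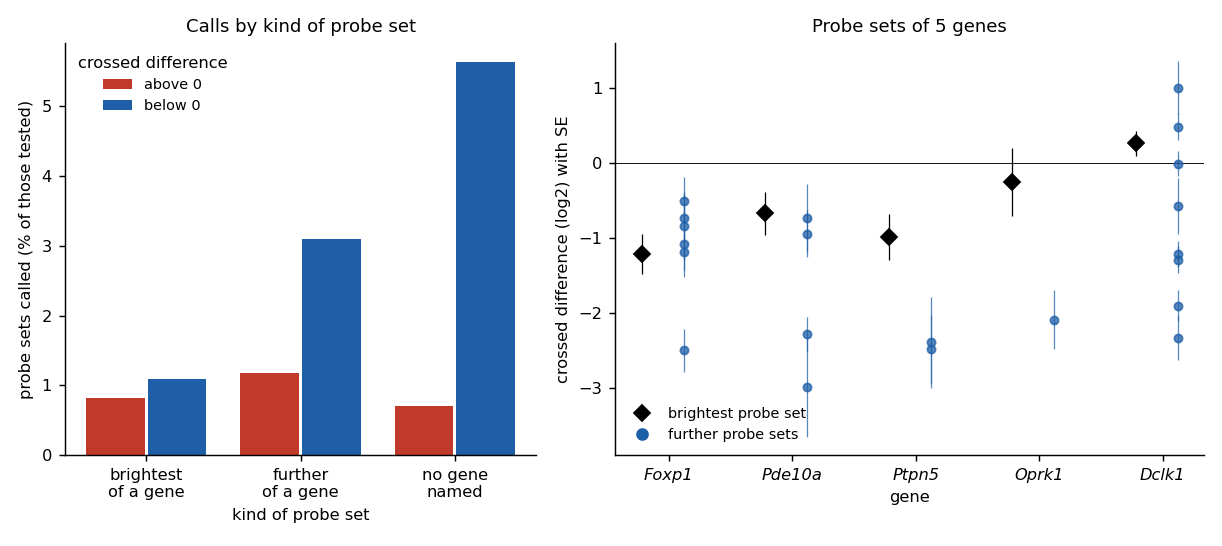
Left, share of probe sets called above 0 (red) and below 0 (blue) among the brightest probe sets of genes, further probe sets and those with no gene named (percent of those tested). Right, crossed difference with SE (log2) of each kept probe set of 5 genes, the brightest as a diamond; further probe sets of Foxp1, Pde10a, Ptpn5, Oprk1 and Dclk1 reach below -2.

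Over all probe sets, 9 of 58 of the projection neuron list were called below 0 in 8 genes, 8 of 34 of the transcription factor list in 4 genes and 9 of 72 of the signalling list in 7 genes, with 0 above 0 in each, against 2.18% of all probe sets below 0 and 3.10% of further ones. They included probe sets of Oprk1, the kappa opioid receptor gene (-2.10, adjusted p = 0.0171), and Camkk2, a kinase activated by calmodulin (-1.46, adjusted p = 0.0091). Another was of Arpp21, a phosphoprotein regulated by cyclic AMP (-2.23, adjusted p = 0.0375). All were named after their values were seen, and none is the brightest of its gene. The brightest gave -0.25 (adjusted p = 0.81) for Oprk1 and -0.14 (adjusted p = 0.70) for Camkk2. The called Oprk1 probe set had a mean of 4.52, near the cut of 4.

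Markers of other cells were measured beside these groups. Of 9 choroid plexus genes, 8 lay below 0, with a median of -0.95 and 0 called by limma (0 at an unadjusted p under 0.05), and the median ranged from -1.94 (without wild-type replicate 3) to 0.04 (without wild-type replicate 5) when single arrays were left out. Ttr, the transthyretin of the choroid plexus, read 11.91 to 16.33 on wild-type arrays 1 to 3, 12.26 to 15.85 on Q111 arrays 1 to 3, 12.21 to 15.46 on wild-type arrays 4 to 6 and 14.36 to 15.80 on Q111 arrays 4 to 6. Each cell held a wide range, and its crossed difference was -1.03 (SE 1.83, adjusted p = 0.813). Of 19 genes of myelinating oligodendrocytes and 23 of astrocytes limma called 0 (1 and 5 at an unadjusted p under 0.05), with medians of 0.13 in each; Mbp, myelin basic protein, had -0.06 (adjusted p = 0.845). The part of choroid plexus in the crossed difference was not tested.

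Xist, the noncoding RNA of the inactive X chromosome, was above 7 on 2 of 3 wild-type arrays 1 to 3 and on 1 of 3 in each other cell, and between 3.45 and 4.12 on the rest. All cells thus held arrays of both kinds, and with the Xist level as a covariate 465 probe sets were called, 432 of them among the 607. The 3' minus 5' difference of the Gapdh control probe sets, a sign of RNA integrity, had a crossed difference of 0.16 (SE 0.093), that of Actb -0.020 (SE 0.15), and the array median -0.038 (SE 0.044). Immediate early genes, which respond to handling, had 0 calls by limma among 20 (0 at an unadjusted p under 0.05) and a median of 0.02.

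The same crossed difference in the cerebellum arrays, taken from their own numbers 1 to 3 and 4 to 6, gave 0 calls among 19619 probe sets (1222 at an unadjusted p under 0.05, smallest adjusted p 0.171). Its SD over probe sets was 0.307, against 0.461 in striatum. The striatum value minus the cerebellum value, fitted over all 24 arrays, was called for 54 probe sets (0.277%) and for 11 genes (0.106%), 10 (0.0964%) above 0 and 1 (0.00964%) below. Cbln4 had the largest, 2.72 (SE 0.50, adjusted p = 0.0301), and Zcchc7 was the 1 below 0, at -1.58 (SE 0.27, adjusted p = 0.0153). The mean of Cbln4 was 6.13 in striatum and 3.23 log2 lower in cerebellum, which is under the cut of 4 and near background. Of the 38 probe sets (0.195%) called below 0, 1 was the brightest of its gene, 18 were further probe sets and 19 had no gene named. The dimmest Foxp1 probe set was among them (adjusted p = 0.000862), with a mean 3.21 log2 lower in cerebellum than in striatum. Slc17a6 (4.39, adjusted p = 0.109) was not, so for that gene a difference between the tissues was not shown. In cerebellum the median of the thalamus list was 0.03 and that of the striatal transcription factors -0.12. The transcription factor genes had a median level of 8.21 in striatum and a median striatum minus cerebellum difference of 4.64. Part of that list was thus near background in cerebellum, where little crossed difference can show. For the thalamus list these medians were 7.28 and -0.98.

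Next to the threshold, Nfic (-0.79, adjusted p = 0.0493) and Galnt9 (1.04, adjusted p = 0.0487) were the last genes inside it. Lyrm9 (-0.72, adjusted p = 0.0505) and Kcnk1 (0.58, adjusted p = 0.0509) were the first outside.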

How the data were processed

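The authors made the deposited log2 expression values with GCRMA, which corrects background by probe sequence and normalises between arrays, as the submitters' processing notes name it. The log base is not stated; a range of -0.77 to 16.33 was read as log2. Controls (64 of 45101 probe sets) were left out, as were probe sets with a mean under 4 on the 12 striatum arrays, which kept 19528. Gene names come from the platform annotation; the brightest probe set stood for a gene. Of the other 45037 probe sets, 34945 have 1 gene symbol, 932 several and 9160 none.

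A linear model with a mean per cell of genotype and number set was fitted with limma 3.58.1 in R 4.3.3 (8 residual degrees of freedom, prior 3.52), with Benjamini-Hochberg adjustment over all kept probe sets and a threshold of 0.05. It was tested on simulated arrays: for the crossed difference 18% of 1.5-fold, 56% of 2-fold, 84% of 3-fold and 94% of 4-fold changes were called, 50 of each among 19528 probe sets, with 7.35% of calls false. The number of arrays limits the precision.

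Members and the 37 gene lists were chosen with earlier results of these data known. Named genes are the 15 highest and 15 lowest called, up to 5 called per list or else 2 of highest mean, 5 between tissues, and a set of marker genes; others are named as chosen after their values were seen. Alternatives covered the filter, normalisation, variance model, array weights, replicate block, all 24 arrays, a floor, and leaving out each array. Same-numbered arrays of the genotypes did not deviate together (correlations of -0.128 to 0.0785), so the numbers were not taken as pairs. RefSeq promoters of GRCm38.p6 matched 8444 of 10378 genes by symbol; the files name no build.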

Additional observations from a re-analysis of the deposited data

Results flagged for a closer look

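For 5 named genes the crossed difference of the striatum differed from that of the cerebellum by the test of the difference itself in limma. The difference was 2.72 for Cbln4, 1.77 for Fkbp1b, 1.71 for Zfp120, 1.46 for Bmper and -1.58 for Zcchc7. In striatum alone Fkbp1b, a regulator of calcium release channels, had 1.00 (adjusted p = 0.077) and was not called. Its cerebellum value was -0.77, that of Cbln4 -0.85 and that of Zfp120 -0.34, against 0.07 for Bmper and 0.40 for Zcchc7. The means of Cbln4 and Bmper were 3.23 and 2.99 log2 lower in cerebellum than in striatum. Both lay under the cut of 4 in cerebellum, so their values there are near background.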

How the results depend on the processing

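For the 607 probe sets called for the crossed difference, no filter gave 404 and the replicate block 330, and leaving out 1 array gave 274 to 649. The block pairs arrays that share only a number; it moved the 144 called in numbers 1 to 3 to 74, the 446 called in numbers 4 to 6 to 289 and the 54 called between tissues to 22. In numbers 1 to 3, no filter gave 76 and leaving out 1 array 19 to 190. In numbers 4 to 6, the trend with a robust prior gave 684, array weights 775 and leaving out 1 array 59 (without wild-type replicate 6) to 749. Between tissues, no filter and a mean of 6 or more gave 32 each, quantile normalisation about 1.1e+02, the trend with a robust prior 94, array weights 263, a floor at 4 102, and leaving out 1 array 17 to 122. The cerebellum count was 1 with the trend and robust prior, and 0 to 1 when 1 array was left out. Leaving out 1 array moved the list medians to 0.83 to 1.65 for thalamus, -0.63 to -0.35 for projection neurons and -0.90 to -0.39 for transcription factors, and no named gene that was called changed its sign. Of 42 called named genes, 41 stayed called with quantile normalisation, 39 with median centring, 23 with the replicate block and 21 without a filter. The share of calls below 0 was 70.0%, 80.9% without Q111 replicate 3 and 79.2% without wild-type replicate 6. With the Xist level as a covariate, an alternative chosen after seeing the data, 465 were called. The cause of these shifts was not tested. In simulated arrays 56% of 2-fold changes were called, so an uncalled change of this size is not shown to be absent.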

Other observations

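By chromosome, 3.56% of 477 genes on chromosome 17 and 3.25% of 277 on chromosome 18 were called for the crossed difference, against 1.91% of all genes. Agpat1, Ier3, Rgs11 and Six3 are among the former and Sh3rf2 among the latter.

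Neurod6, a transcription factor of cortical projection neurons, had a Q111 minus wild-type difference of 1.5 in numbers 1 to 3 and 0.74 in numbers 4 to 6, neither of them called, and its crossed difference was 0.76 (SE 0.51, adjusted p = 0.459). The median of 28 cortex genes was 0.53 in numbers 1 to 3 and 0.05 in numbers 4 to 6.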
